A study of Rattus norvegicus with 9 samples.

Results

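Of 9 genes listed for salt and magnesium transport in the thick ascending limb and the distal convoluted tubule of the kidney, 8 were found by gene name in a table of FPKM values that names 11235 genes: Slc12a1, Kcnj1, Bsnd, Cldn16, Cldn19, Slc12a3, Trpm6 and Egf. All 8 were among the 17335 genes with enough reads to be tested. Wnk4, a kinase that regulates the thiazide-sensitive cotransporter, was not analysed here. They were picked by gene name alone, with no measured value in the rule.

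The study sequenced poly(A) RNA of rat kidney in 9 libraries, 3 in each of 3 groups. The I/R + rapamycin group had renal ischaemia followed by reperfusion and received rapamycin, an inhibitor of the mTOR complex 1 kinase, the I/R group had the injury without rapamycin, and the sham group had a sham operation in place of the ischaemia. All rats were wild-type Sprague-Dawley animals 6 to 8 weeks old, and all libraries carry batch 1. Ischaemia lasted 45 min, but the sources differ on the rest: the series design gives male rats, a clamp on the left renal artery, injections into the peritoneum and 1 mg/kg per day, whereas the sample protocols give both sexes, oral gavage from 1 day before surgery, daily doses of 1 or 2 mg/kg and reperfusion for 3 or 7 days, in 6 groups. Dose, route, sex and time of the sequenced kidneys are therefore unsettled, and which kidney gave the RNA is not given in the sources used here. The labels number the replicates and do not tie them to animals. The p-values therefore rest on the spread between the libraries, which may be technical.

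The thick ascending limb reabsorbs salt through the apical cotransporter NKCC2, encoded by Slc12a1, while ROMK, encoded by Kcnj1, returns potassium to the lumen and chloride leaves through basolateral channels that need the subunit barttin, encoded by Bsnd. The lumen-positive voltage that results drives calcium and magnesium between the cells through claudin-16 and claudin-19. Further along, the distal convoluted tubule takes up salt through the thiazide-sensitive cotransporter NCC, encoded by Slc12a3, and magnesium through the channel TRPM6. Both segments produce pro-EGF, a membrane-bound precursor of a growth factor that is known to stimulate TRPM6.

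The upstream sequences of 3 of these genes are shown because Slc12a1 and Cldn19 varied together over the libraries and Slc12a3 varied the opposite way, as described below. Each is the 250 bases before a transcription start listed by RefSeq on GRCr8, printed 5′ to 3′ on the gene's strand. For Slc12a1 it is 1 of 2 listed starts, at chr3:132859409-132859658 (plus strand). The window of Cldn19 lies at chr5:138148325-138148574 (plus strand) and that of Slc12a3 at chr19:10675051-10675300 (minus strand). Capitals mark matches to 3 motifs, which were searched on both strands and did not overlap where found. The core promoter element known as the TATA box was searched as TATAAA. A site for oestrogen-related receptors, the family of the factor encoded by Esrrg, was searched as AAGGTCA. The site of AP-2 factors, such as the product of Tfap2b, was searched as GCCNNNGGC.
Slc12a1: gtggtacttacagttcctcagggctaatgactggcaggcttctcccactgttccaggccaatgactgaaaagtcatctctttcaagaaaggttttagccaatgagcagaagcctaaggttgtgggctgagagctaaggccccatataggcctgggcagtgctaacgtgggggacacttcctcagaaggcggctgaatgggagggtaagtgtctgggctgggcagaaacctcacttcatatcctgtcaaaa
Cldn19: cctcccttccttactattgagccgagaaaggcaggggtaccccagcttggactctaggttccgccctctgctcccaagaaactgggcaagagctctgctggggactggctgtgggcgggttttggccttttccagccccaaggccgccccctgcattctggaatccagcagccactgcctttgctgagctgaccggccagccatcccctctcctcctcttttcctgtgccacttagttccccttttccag
Slc12a3: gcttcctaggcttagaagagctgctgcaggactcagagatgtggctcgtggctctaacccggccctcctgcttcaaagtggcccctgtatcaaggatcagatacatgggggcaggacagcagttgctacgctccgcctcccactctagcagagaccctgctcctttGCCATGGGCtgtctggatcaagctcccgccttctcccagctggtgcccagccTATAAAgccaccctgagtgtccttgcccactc
Slc12a3 held a TATA box at -32 and an AP-2 site at -84, counted from the start site, and the other windows shown held none of the 3 motifs. Of the windows not printed, that of Cldn16 held an AP-2 site at -11 and 1 of Kcnj1 a TATA box at -41. Those of Bsnd, Trpm6 and Egf held none. Over 33469 RefSeq windows of the same length, 12.9% held the TATA box, 3.99% the oestrogen-related receptor site and 12.6% the AP-2 site. G and C made up 51.6% of the Slc12a1 window, 60.0% of the Cldn19 window and 59.2% of the Slc12a3 window, beside a median of 51.2% over all windows. A match is a string of letters and not a shown binding site.

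Library totals ranged from 44582251 counts in I/R + rapamycin 1 to 60538627 counts in sham 3. Levels are given as CPM (read counts scaled to a common library size with TMM factors), always for replicates 1, 2 and 3 of a group in that order. Changes are log2 fold changes from edgeR's quasi-likelihood test over all genes and libraries, given for the group named first over the group named second, with a call at a Benjamini-Hochberg adjusted p under 0.05. The I/R libraries serve in the comparisons with sham and with I/R + rapamycin, and the sham libraries in the comparisons with I/R and with I/R + rapamycin, so these comparisons are not independent of each other. The labels name renal tubular cells as well as kidney, yet genes of other kidney cells were measured in all libraries. The summed level of the 5 podocyte markers listed, for example, was 423 to 593 CPM in I/R + rapamycin, 452 to 636 CPM in I/R and 686 to 702 CPM in sham. In such bulk RNA, fewer cells of a segment and less RNA per cell cannot be told apart.

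A pair of libraries stood apart from the others of their groups in thick limb genes. I/R + rapamycin 1 and I/R 3 had 1283 and 1160 CPM of Slc12a1, against 542 to 748 CPM in the remaining 7 libraries. Values of Slc12a1, the claudins, Slc12a3, Trpm6, the cotransporter ratio, the correlations with Slc12a1 and Slc12a3 and Esrrg are also given without them.

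Slc12a1, the target of loop diuretics, was at 1283, 748 and 550 CPM in the I/R + rapamycin libraries, 583, 584 and 1160 CPM in I/R and 615, 558 and 542 CPM in sham. The means were 861 ± 379 CPM in I/R + rapamycin, 776 ± 333 CPM in I/R and 572 ± 38.1 CPM in sham (SD, n = 3 each). In both injured groups 1 library was far above the others, and the lowest I/R + rapamycin library was inside the sham range. The fitted log2 fold change was 0.44 (SE 0.35, adjusted p = 0.754) for I/R against sham, 0.15 (SE 0.35, adjusted p = 0.875) for I/R + rapamycin against I/R and 0.59 (SE 0.35, adjusted p = 0.504) for I/R + rapamycin against sham, and none was called. Without I/R + rapamycin 1 and I/R 3 these values were 0.03, 0.15 and 0.18.

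The claudins of the paracellular cation pathway followed the same libraries. Cldn19 was at 32.2, 18.1 and 15.7 CPM in I/R + rapamycin, 14.1, 15.8 and 25.3 CPM in I/R and 14.4, 12.2 and 11.6 CPM in sham. All 3 I/R + rapamycin libraries were above all 3 sham libraries, whereas I/R overlapped both. Its log2 fold change was 0.79 for I/R + rapamycin against sham (SE 0.29, unadjusted p = 0.0246, adjusted p = 0.291), 0.53 for I/R against sham (adjusted p = 0.629) and 0.26 for I/R + rapamycin against I/R (adjusted p = 0.707). Without I/R + rapamycin 1 and I/R 3, the values were 0.41 for I/R + rapamycin against sham, 0.23 for I/R against sham and 0.18 for I/R + rapamycin against I/R. Leaving out I/R 3 alone also gave 0.23 for I/R against sham.

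Cldn16 was at 23.2, 19.4 and 17.2 CPM in I/R + rapamycin, 18.6, 21.3 and 25.3 CPM in I/R and 19.0, 13.9 and 16.2 CPM in sham. Only the lowest I/R library lay within the range of sham, just under its highest library. The log2 fold change for I/R against sham was 0.41 (SE 0.16, unadjusted p = 0.0298, adjusted p = 0.475), and 0.28 without I/R + rapamycin 1 and I/R 3. For I/R + rapamycin it was 0.28 against sham (adjusted p = 0.476) and -0.12 against I/R (adjusted p = 0.752), or 0.16 and -0.12 without those libraries. The value against sham was 0.18 without sham 2.

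**Figure D1:**
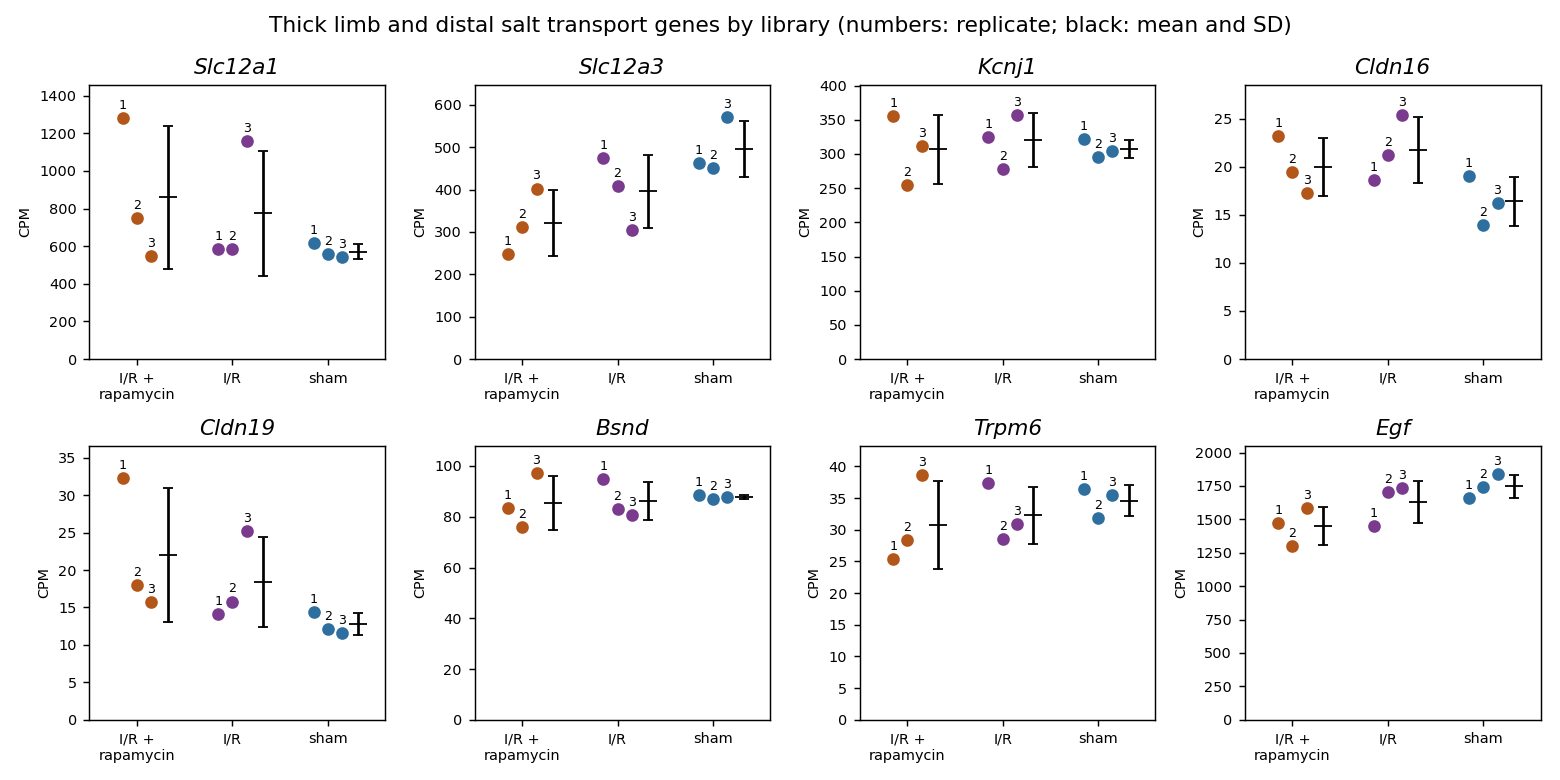
CPM of the 8 genes in each library (points, numbered by replicate), with the group mean and SD (black), for I/R + rapamycin, I/R and sham. Slc12a1 and Cldn19 are high in I/R + rapamycin 1 and I/R 3, while Slc12a3 is lowest in the same libraries.

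The potassium channel gene was also highest in these libraries, by a smaller margin, and the chloride channel subunit was not. Kcnj1 was at 355, 254 and 311 CPM in I/R + rapamycin, 325, 279 and 356 CPM in I/R and 322, 296 and 305 CPM in sham. Bsnd, which serves the chloride channels of both segments and of the inner ear, was at 83.5, 75.9 and 97.1 CPM in I/R + rapamycin, 94.7, 83.2 and 80.7 CPM in I/R and 88.7, 87.0 and 87.7 CPM in sham. The groups overlapped for each gene, and the sham libraries lay inside the I/R + rapamycin range. Fitted log2 fold changes lay between -0.06 and 0.06 for Kcnj1 and between -0.04 and -0.01 for Bsnd, with SEs of 0.13 and 0.1 and adjusted p-values of 0.862 or more.

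In the distal convoluted tubule, Slc12a3 ran opposite to Slc12a1. It was at 247, 312 and 403 CPM in I/R + rapamycin, 474, 408 and 305 CPM in I/R and 463, 451 and 572 CPM in sham. Every I/R + rapamycin library was below every sham library, and I/R overlapped both. The means were 321 ± 78.2 CPM in I/R + rapamycin, 396 ± 85.2 CPM in I/R and 495 ± 66.4 CPM in sham (SD, n = 3 each).

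The log2 fold change of Slc12a3 between I/R + rapamycin and sham was -0.63 (SE 0.2, unadjusted p = 0.0103), and it was not called by edgeR (adjusted p = 0.22). DESeq2, run on the same counts, put its adjusted p at 0.0447, just under the threshold. The value was -0.32 for I/R against sham (SE 0.2, adjusted p = 0.66) and -0.30 for I/R + rapamycin against I/R (SE 0.2, adjusted p = 0.488). Without I/R + rapamycin 1 and I/R 3 the value for I/R + rapamycin against sham was -0.47 (adjusted p = 0.53), that for I/R against sham -0.17 and that for I/R + rapamycin against I/R -0.30. With 1 library left out, I/R against sham was -0.17 without I/R 3 and -0.21 without sham 3, and I/R + rapamycin against I/R was -0.15 without I/R + rapamycin 1. Leaving out I/R + rapamycin 3 gave -0.50 for it, and leaving out I/R 3 gave -0.46. The podocyte marker sums given above were also below all sham libraries in every I/R + rapamycin and I/R library, with all 5 listed markers measured and none at 0 CPM, and their part in the Slc12a3 result was not tested.

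Trpm6 was at 25.4, 28.4 and 38.6 CPM in I/R + rapamycin, 37.4, 28.6 and 30.8 CPM in I/R and 36.5, 31.8 and 35.5 CPM in sham. The I/R + rapamycin libraries spanned the whole range of the others, and the log2 fold changes of -0.10 for I/R against sham, -0.07 for I/R + rapamycin against I/R and -0.17 for I/R + rapamycin against sham each had an SE of 0.16 and an adjusted p of 0.684 or more. Without I/R + rapamycin 1 and I/R 3 these values were -0.07, 0.02 and -0.05.

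Egf, the growth factor gene of the set, was at 1473, 1302 and 1585 CPM in I/R + rapamycin, 1448, 1704 and 1732 CPM in I/R and 1659, 1741 and 1838 CPM in sham. All I/R + rapamycin libraries were below all sham libraries, by a narrow margin at the nearest pair, and I/R overlapped both. The fitted log2 fold change was -0.26 for I/R + rapamycin against sham (SE 0.12, unadjusted p = 0.0482, adjusted p = 0.356), -0.10 for I/R against sham (SE 0.12, adjusted p = 0.84) and -0.16 for I/R + rapamycin against I/R (SE 0.12, adjusted p = 0.527).

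**Figure D2:**
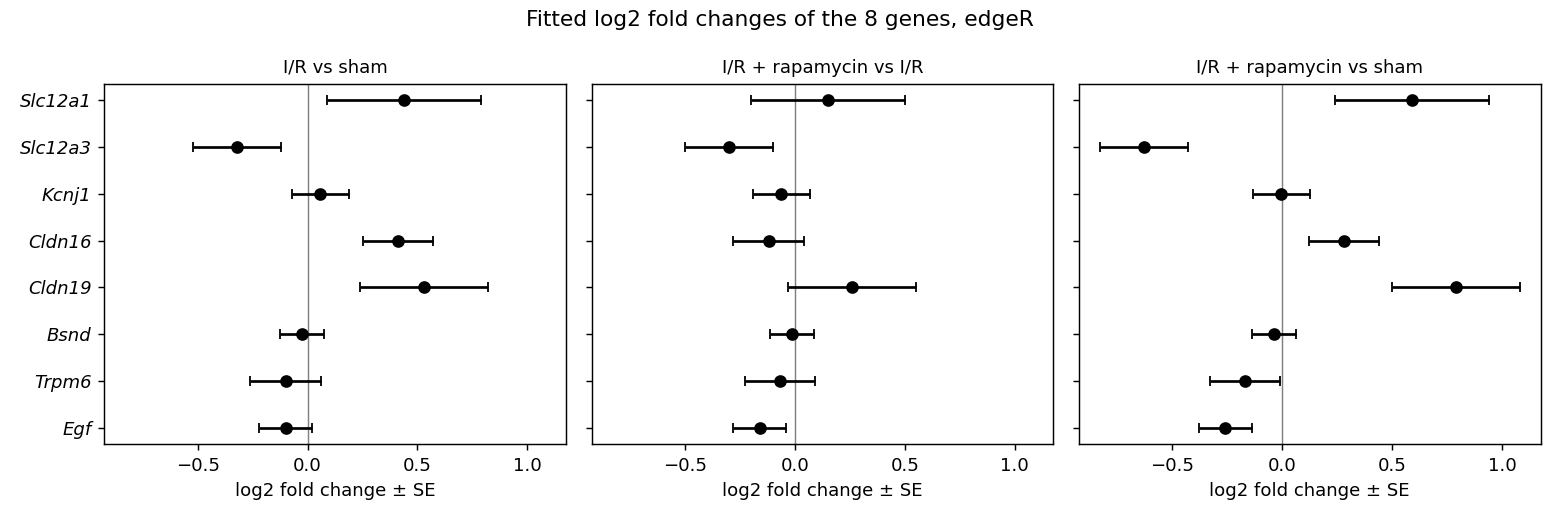
Log2 fold change (point) and SE (bar) of the 8 genes from edgeR in the 3 comparisons; values above 0 are higher in the group named first. The intervals of Slc12a1 and Cldn19 are the widest, and Kcnj1 and Bsnd lie near 0 throughout.

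Counted over the 8 genes, edgeR called 0 between I/R and sham, where it called 0.0577% of all tested genes. It also called 0 between I/R + rapamycin and I/R, beside 0.127% of all genes, and 0 between I/R + rapamycin and sham, beside 0.156%. At an unadjusted p under 0.05 the counts were 1 of 8 (Cldn16) between I/R and sham beside 9.42% of all genes, 0 of 8 between I/R + rapamycin and I/R beside 16.3%, and 3 of 8 (Slc12a3, Cldn19 and Egf) between I/R + rapamycin and sham beside 13.8%. DESeq2 called 0, 0 and 1 in the same order, the 1 being Slc12a3, beside 1.31%, 5.24% and 3.27% of the genes it gave an adjusted p. The groups did not overlap for 0 of 8 genes between I/R and sham (14.6% of all genes), for 0 of 8 between I/R + rapamycin and I/R (24.6%) and for 3 of 8 between I/R + rapamycin and sham (19.3%). The median log2 fold change of the 8 was 0.016, -0.064 and -0.021 in these comparisons, beside 0.003, 0.006 and 0.001 over all tested genes.

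FPKM values, the authors' counts per length and depth, allow the genes to be ranked, although the rank leans on the length they used, which the counts put at between 1704 bases for Cldn16 and 12738 bases for Kcnj1. Egf was first in every group, at 263 ± 31.7 FPKM in I/R + rapamycin, 308 ± 24.9 FPKM in I/R and 325 ± 14.2 FPKM in sham (SD, n = 3 each). The cotransporters came next. Slc12a1 was above Slc12a3 in I/R + rapamycin, at means of 152 and 75.1 FPKM, and in I/R, at 145.0 and 96.8 FPKM, while in sham Slc12a3 was the higher at 119 FPKM against 105.0 FPKM for Slc12a1. Only in I/R + rapamycin did the libraries of the 2 genes not overlap.

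Below them came Bsnd at 27.6, 29.1 and 29.2 FPKM and Kcnj1 at 23.5, 25.8 and 24.4 FPKM in I/R + rapamycin, I/R and sham. Their libraries overlapped in both injured groups and not in sham. Cldn16 followed at 11.4, 13.0 and 9.72 FPKM and Cldn19 at 10.2, 9.01 and 6.16 FPKM, again overlapping in both injured groups and not in sham. Trpm6 was last, at 3.95, 4.34 and 4.57 FPKM.

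The ratio of the cotransporters, chosen after the values were seen, puts the opposite movement of Slc12a1 and Slc12a3 in 1 number. Per length, Slc12a1 over Slc12a3 was 3.96, 1.82 and 1.04 in the I/R + rapamycin libraries, 0.937, 1.09 and 2.90 in the I/R libraries and 1.01, 0.943 and 0.723 in the sham libraries. All I/R + rapamycin libraries were above all sham libraries, the lowest of them narrowly. The mean log2 ratio differed by 1.15 between I/R + rapamycin and sham (p = 0.1, exact two-sided permutation test), by 0.7 between I/R and sham (p = 0.3) and by 0.45 between I/R + rapamycin and I/R (p = 0.6), and 0.1 is the smallest p that 3 libraries against 3 allow. Without I/R + rapamycin 1 and I/R 3 the differences were 0.64, 0.20 and 0.45 in the same order.

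Across the 9 libraries, log2 CPM of Slc12a1 and Cldn19 had a Pearson r of 0.96, and Slc12a1 and Cldn16 one of 0.79. These values describe points that share libraries, depth and tissue composition, and are given without a test. Leaving out I/R + rapamycin 1 and I/R 3, the 2 libraries farthest from the median of Slc12a1, changed them to 0.73 and 0.49. Slc12a1 and Slc12a3 had an r of -0.88, and -0.78 without the same libraries. Spearman's rho was 0.87 for Slc12a1 with Cldn19 and -0.75 for Slc12a1 with Slc12a3. Slc12a3 and Cldn19 had an r of -0.94, and Slc12a3 and Trpm6 one of 0.76, or -0.88 and 0.60 without I/R + rapamycin 1 and sham 3, the libraries farthest from the median of Slc12a3.

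The r of Kcnj1 with Slc12a1 was 0.55 over 9 libraries and -0.68 over the 7 left without I/R + rapamycin 1 and I/R 3, a change of sign. Egf had an r of -0.25 with Slc12a1 over all 9 and of -0.80 over those 7, and an r of 0.51 with Slc12a3 over all 9, or 0.24 without I/R + rapamycin 1 and sham 3. Bsnd and Trpm6 had an r of 0.80.

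**Figure D3:**
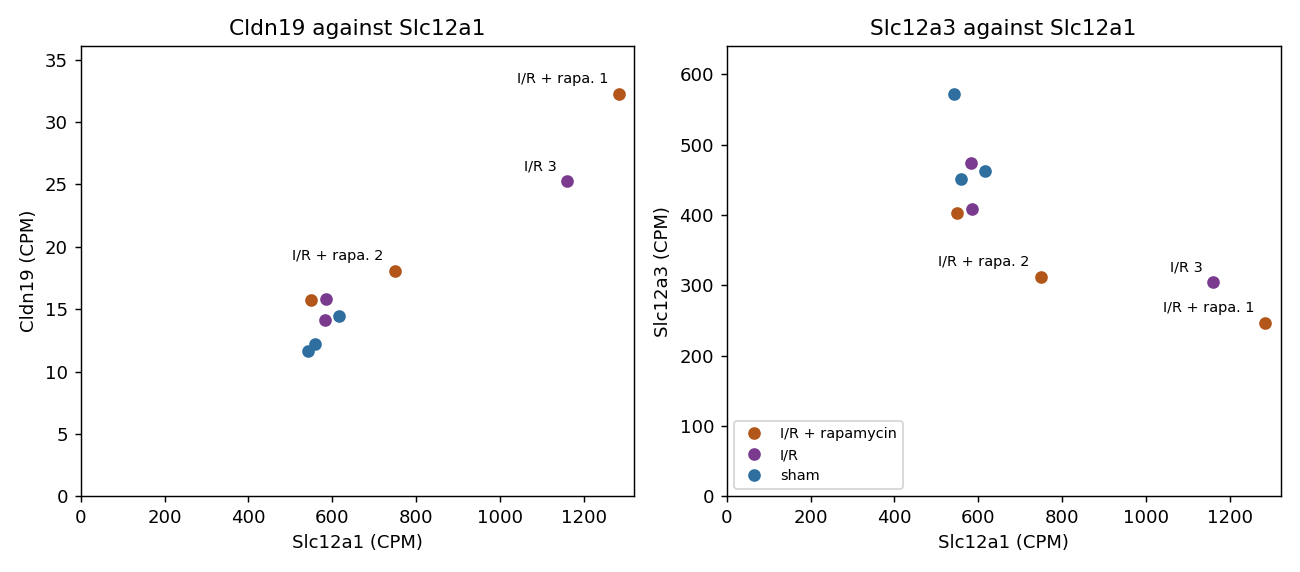
Cldn19 (left) and Slc12a3 (right) against Slc12a1, in CPM, 1 point per library. I/R + rapamycin 1 and I/R 3 lie far to the right in both panels, with the highest Cldn19 and the lowest Slc12a3, and I/R + rapamycin 2 lies next.

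Among 10082 named genes with a mean of at least 5 CPM, the 5 most like Slc12a1 over the 9 libraries included Sim2 (Pearson r 0.98), Ppp1r1b (0.969), Fxyd6 (0.967) and Mapk13 (0.966). Over the 7 libraries without I/R + rapamycin 1 and I/R 3, the r was 0.91 for Sim2, 0.95 for Ppp1r1b, 0.80 for Fxyd6 and 0.57 for Mapk13. Ppp1r1b, a phosphatase inhibitor known from dopamine signalling in the brain and also made in the thick limb, was at 55.9, 19.5 and 4.21 CPM in I/R + rapamycin, 8.07, 7.11 and 37.1 CPM in I/R and 9.86, 6.83 and 4.47 CPM in sham. Its range over the libraries was wider than that of Slc12a1. The same 2 libraries were highest, which follows from picking Ppp1r1b by its likeness to Slc12a1. Sim2, a transcription factor of the bHLH-PAS family, was at 17.4, 8.29 and 5.24 CPM in I/R + rapamycin, 5.45, 5.99 and 12.8 CPM in I/R and 7.36, 4.96 and 5.22 CPM in sham.

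Most like Slc12a3 were Pdzrn3 (0.985), Abca8a (0.981), Caprin1 (0.966), Sorbs2 (0.964) and Abtb2 (0.953), with an r of 0.90 to 0.96 over the same 7 libraries. Abca8a, a transporter of the ATP-binding cassette family, was at 31.2, 49.7 and 58.8 CPM in I/R + rapamycin, 81.6, 60.1 and 46.4 CPM in I/R and 82.9, 73.1 and 96.2 CPM in sham. All I/R + rapamycin libraries were below all sham libraries, as for Slc12a3. Abca8a was picked for its likeness to Slc12a3, so this is no separate result, and 19.3% of all genes did not overlap there. Most like Egf were Kcnq1 (0.955), LOC103691235 (0.928), Poc5 (0.919), Plod3 (0.912) and Inpp5j (0.908). Kcnq1, a voltage-gated potassium channel, was at 35.5, 28.7 and 39.4 CPM in I/R + rapamycin, 37.4, 42.8 and 41.1 CPM in I/R and 44.3, 44.7 and 50.7 CPM in sham.

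The libraries high in Slc12a1 were also high in other thick limb genes and in 2 transcription factors. I/R + rapamycin 1 and I/R 3 were both above all 7 others in 7 of 14 further transport genes of the thick limb, and both below them in 1. In 14 further genes of the distal convoluted tubule these numbers were 1 and 3. These libraries were picked by their Slc12a1 values, and the share over all tested genes was not taken. Umod, the uromodulin gene that marks the thick limb, was at 3067, 1997 and 1513 CPM in I/R + rapamycin, 1367, 2047 and 2758 CPM in I/R and 1808, 1657 and 1825 CPM in sham. Irx1 and Irx2, Iroquois transcription factors, were highest in the same libraries, at 26.8 and 23.2 CPM in I/R + rapamycin 1 and 17.7 and 15.4 CPM in I/R 3, against at most 13.4 and 11.3 CPM in the other 7. Irx1 and Irx2 were chosen after their values were seen.

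Most marker genes outside the thick limb did not share the pattern. Some did, with I/R + rapamycin 1 and I/R 3 above all other libraries. These included Fxyd4 of the principal cell list, at 28.1 and 16.6 CPM there, and the osmolyte gene Slc6a6, at 222 and 304 CPM. Mfsd4a of the distal tubule list, at 45.6 and 46.2 CPM, was another. Slc7a13 and Spp1, which also did, are given for all libraries and were chosen after their values were seen. Slc7a13, an amino acid transporter of the late proximal tubule, was at 1263, 1137 and 393 CPM in I/R + rapamycin, 271, 586 and 1310 CPM in I/R and 539, 253 and 309 CPM in sham. Spp1, the osteopontin gene and an injury marker, was at 567, 211 and 231 CPM in I/R + rapamycin, 199, 214 and 674 CPM in I/R and 125, 133 and 129 CPM in sham. Of 8 injury markers listed, 5 were measured, with none at 0 CPM and sums of 341 to 752 CPM in I/R + rapamycin, 312 to 771 CPM in I/R and 247 to 416 CPM in sham. The 10 proximal tubule markers were all measured, with sums of 11450 to 13520 CPM in I/R + rapamycin, 13490 to 15410 CPM in I/R and 11340 to 15260 CPM in sham. Slc7a13 was the only one of the 10 in which I/R + rapamycin 1 and I/R 3 were both above the median of the other 7 libraries, and in 6 of the 10 both were below it. The sodium-glucose cotransporter gene Slc5a2, at 396 CPM in I/R + rapamycin 1 and 389 CPM in I/R 3, was among these 6. Of the 5 injury markers, Spp1 was the only one with both libraries above all others. All 5 podocyte markers had both below the median of the other 7. The part of these lists in the Slc12a1 and Cldn19 values was not tested.

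**Figure D4:**
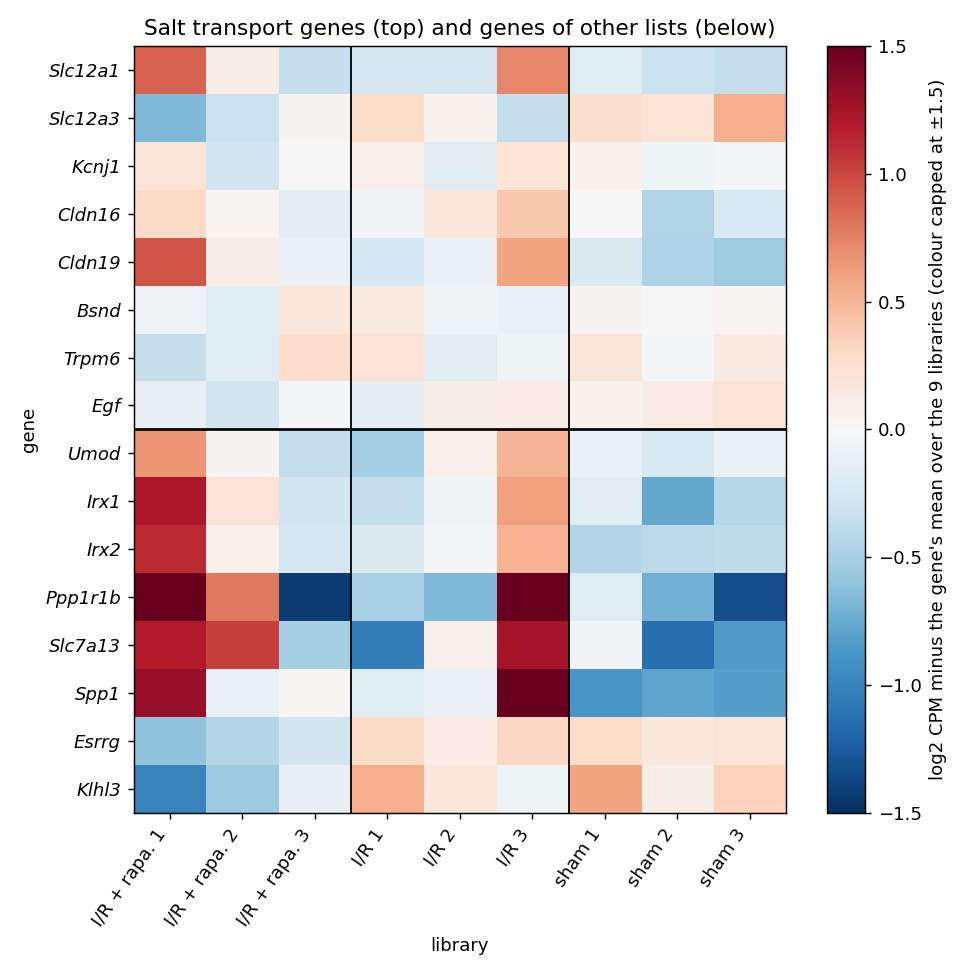
Log2 CPM minus the gene's mean over the 9 libraries (colour), by library and gene; the 8 transport genes are above the line, and genes of other lists, picked in part after their values were seen, below it. I/R + rapamycin 1 and I/R 3 are red in Slc12a1, Cldn19, Umod, Irx1, Irx2, Ppp1r1b, Slc7a13 and Spp1.

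Other transport genes of the thick limb were measured for 14 of 15 listed. By edgeR 0 of the 14 were called in any of the 3 comparisons, and the unadjusted p was under 0.05 for 2 between I/R and sham, 2 between I/R + rapamycin and I/R and 3 between I/R + rapamycin and sham, beside 9.42%, 16.3% and 13.8% of all genes. DESeq2 called 0, 0 and 1, beside 1.31%, 5.24% and 3.27%.

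Fxyd2, the gamma subunit of the sodium pump, was at 1123, 979 and 933 CPM in I/R + rapamycin, 729, 856 and 843 CPM in I/R and 780, 915 and 746 CPM in sham. Every I/R + rapamycin library was above all others. Its log2 fold changes were 0.32 against I/R (adjusted p = 0.246) and 0.31 against sham (adjusted p = 0.301). Casr, the calcium-sensing receptor that restrains salt transport in the thick limb, had a log2 difference of -0.51 for I/R + rapamycin against I/R (SE 0.2, adjusted p = 0.249). Cldn3 had one of 0.88 for I/R + rapamycin against sham (adjusted p = 0.273), and Tmem207 had 0.62 for I/R against sham (adjusted p = 0.507). The median over the list was 0.204 between I/R and sham, 0.042 between I/R + rapamycin and I/R and 0.088 between I/R + rapamycin and sham.

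Other genes of the distal convoluted and connecting tubule were measured for 14 of 16 listed, and again 0 were called by edgeR. Unadjusted p-values under 0.05 numbered 5 between I/R and sham, 3 between I/R + rapamycin and I/R and 3 between I/R + rapamycin and sham, beside 9.42%, 16.3% and 13.8% of all genes, and the median log2 fold changes were -0.051, -0.099 and -0.239. Of the 14 genes, 12 had a log2 fold change below 0 between I/R + rapamycin and sham, as did 49.8% of all tested genes. Kcnj10, the basolateral potassium channel of the distal convoluted tubule, was at 47.3, 54.2 and 68.4 CPM in I/R + rapamycin, 76.7, 76.5 and 67.8 CPM in I/R and 80.3, 71.7 and 69.3 CPM in sham. The I/R + rapamycin libraries were below all sham libraries and overlapped I/R. Its log2 fold change was -0.38 against I/R (adjusted p = 0.205) and -0.38 against sham (adjusted p = 0.239).

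Klk1, the tissue kallikrein of the connecting tubule, had log2 fold changes of -0.52 for I/R + rapamycin against sham (adjusted p = 0.226) and -0.54 for I/R against sham (adjusted p = 0.352). S100g, the calcium-binding protein calbindin-D9k, had a low level of 0.803 to 4.88 CPM and -1.51 on the log2 scale for I/R against sham (SE 0.43, adjusted p = 0.298). Atp2b4, a plasma membrane calcium pump, was called by DESeq2 between I/R + rapamycin and I/R (adjusted p = 0.0268) and not by edgeR (log2 fold change -0.56, adjusted p = 0.151).

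In the WNK kinase pathway, which sets the phosphorylation of both cotransporters, 11 of 13 listed genes were measured and edgeR called 0. The unadjusted p was under 0.05 for 1 gene between I/R and sham, 1 between I/R + rapamycin and I/R and 2 between I/R + rapamycin and sham. Shares over all genes were 9.42%, 16.3% and 13.8% in the same order. Klhl3 encodes the adaptor through which a cullin-3 ubiquitin ligase marks WNK kinases for degradation. It was at 10.1, 14.0 and 18.7 CPM in I/R + rapamycin, 29.6, 23.0 and 19.3 CPM in I/R and 30.7, 21.8 and 25.8 CPM in sham. Every I/R + rapamycin library was below all others, by a narrow margin at the nearest I/R library. The fitted log2 fold change was -0.74 against I/R (SE 0.23, adjusted p = 0.184 by edgeR and 0.0429 by DESeq2) and -0.87 against sham (SE 0.23, adjusted p = 0.177 by edgeR and 0.0161 by DESeq2). With 1 library left out, it was smallest in size without I/R + rapamycin 1, at -0.55 against I/R and -0.67 against sham. Of 21 alternatives to the edgeR fit, only 1, DESeq2, called Klhl3 in each of these comparisons.

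Sgk1, a kinase induced by aldosterone, was at 452, 468 and 576 CPM in I/R + rapamycin, 527, 437 and 341 CPM in I/R and 303, 375 and 295 CPM in sham. I/R + rapamycin was above sham in all libraries, by 0.62 on the log2 scale in the fit (SE 0.17, adjusted p = 0.176 by edgeR and 0.0148 by DESeq2). Wnk1 ranged from 309 to 480 CPM in I/R + rapamycin, from 331 to 554 CPM in I/R and from 412 to 477 CPM in sham. Stk39, the SPAK kinase that phosphorylates the cotransporters, ranged from 48.0 to 57.5 CPM, from 46.0 to 51.9 CPM and from 51.2 to 64.4 CPM in the same groups. The groups overlapped for Wnk1 and Stk39 in all 3 comparisons.

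Of 11 further genes of magnesium handling, 9 were measured, with 0 called by edgeR or DESeq2. Unadjusted p-values were under 0.05 for 0 genes between I/R and sham and for 2 between I/R + rapamycin and I/R. Between I/R + rapamycin and sham there were also 2. Shares over all genes were 9.42%, 16.3% and 13.8% in this order. Pcbd1, which encodes a dehydratase of pterin metabolism, was at 260, 279 and 249 CPM in I/R + rapamycin, 201, 274 and 216 CPM in I/R and 189, 227 and 192 CPM in sham. All I/R + rapamycin libraries were above all sham libraries. Its log2 fold change against sham was 0.37 (SE 0.13, adjusted p = 0.241).

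The EGF receptor system, through which the Egf product acts, was measured for 8 of 13 listed genes. None of the 8 was called by edgeR, and the unadjusted p was under 0.05 for 0 between I/R and sham, 4 between I/R + rapamycin and I/R and 2 between I/R + rapamycin and sham, beside 9.42%, 16.3% and 13.8% of all genes. All 4 were lower in I/R + rapamycin than in I/R, beside 9.14% of all genes with such a p and a lower value, and the list's median there was -0.337. Errfi1, a feedback inhibitor of the receptor, was at 839, 1028 and 770 CPM in I/R + rapamycin, 1258, 1456 and 1292 CPM in I/R and 1237, 1229 and 708 CPM in sham. Its log2 fold change against I/R was -0.60 (SE 0.2, adjusted p = 0.203 by edgeR and 0.0422 by DESeq2), and sham 3 was below all I/R + rapamycin libraries.

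Adam10, a membrane protease that sheds ligands, had a value of -0.30 on the log2 scale for I/R + rapamycin against I/R (SE 0.087, adjusted p = 0.166), and the receptor Erbb3 one of -0.38 (adjusted p = 0.223). Egfr was at 4.32, 5.94 and 5.45 CPM in I/R + rapamycin, 9.02, 6.91 and 7.37 CPM in I/R and 9.64, 6.83 and 6.09 CPM in sham. Its log2 fold change was -0.52 for I/R + rapamycin against sham (SE 0.21, adjusted p = 0.315).

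The 1 called gene of these lists was a transcription factor. Esrrg, the orphan nuclear receptor ERR gamma, known as a regulator of mitochondrial and ion transport genes, was at 28.3, 31.9 and 35.4 CPM in I/R + rapamycin, 52.6, 46.5 and 53.6 CPM in I/R and 52.4, 48.0 and 49.0 CPM in sham. Every I/R + rapamycin library was below all 6 others, and the sham libraries lay inside the I/R range. It fell in I/R + rapamycin by 0.68 on the log2 scale against I/R (SE 0.1, adjusted p = 0.0408 by edgeR and 7.64e-06 by DESeq2) and by 0.64 against sham (SE 0.1, adjusted p = 0.0446 by edgeR and 2.86e-05 by DESeq2).

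The edgeR call of Esrrg was close to the threshold. Leaving out 1 library at a time kept the call in 2 of 9 fits in each comparison, without I/R + rapamycin 3 or sham 3 against I/R and without I/R + rapamycin 3 or I/R 1 against sham, and it was lost without any other library. The log2 fold change in these fits lay between -0.76 and -0.60 against I/R, with adjusted p-values of 0.043 to 0.194, and between -0.73 and -0.57 against sham, with adjusted p-values of 0.0413 to 0.219. Without both I/R + rapamycin 1 and I/R 3 the values were -0.56 against I/R (adjusted p = 0.475) and -0.57 against sham (adjusted p = 0.266). The summed level of 3 globin genes was also lower in every I/R + rapamycin library than in every I/R library, at 84.8 to 524 CPM against 1242 to 3332 CPM, while it overlapped the sham range of 245 to 2552 CPM, and its part in the Esrrg result was not tested.

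**Figure D5:**
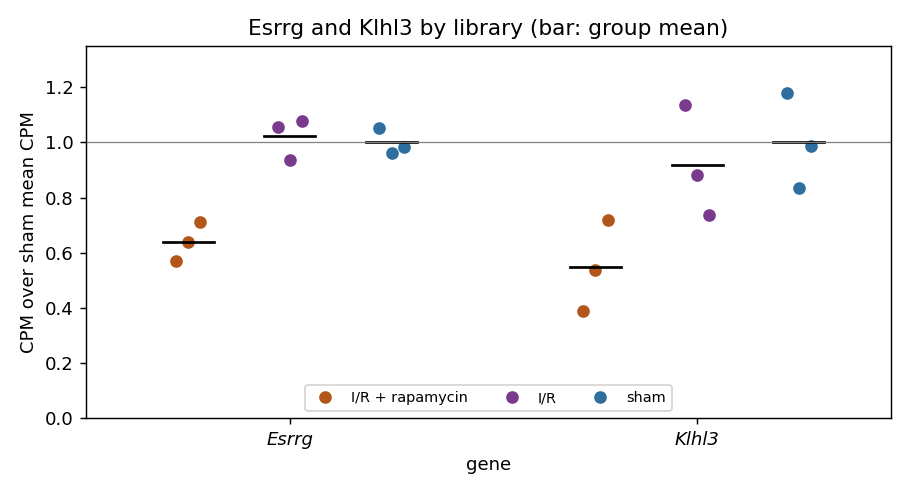
CPM of Esrrg and Klhl3 divided by the sham mean of the gene, 1 point per library and a bar at the group mean. The I/R + rapamycin points of Esrrg and Klhl3 lie below all I/R and sham points, for Klhl3 by a narrow margin at the nearest I/R point.

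The distal nephron transcription factors as a list were measured for 13 of 14 genes. Esrrg was the only one of the 13 called by edgeR in both comparisons of I/R + rapamycin, and 0 were called between I/R and sham, where the unadjusted p was under 0.05 for 2 (9.42% of all genes) and DESeq2 called 1 (1.31%). Between I/R + rapamycin and I/R the unadjusted p was under 0.05 for 5 genes, all lower, beside 9.14% of all genes for lower values, and DESeq2 called 3, beside 5.24% of all genes, these being Esrrg, Tfap2b (adjusted p = 0.0438) and Tfcp2l1 (adjusted p = 0.0279). Tfap2b, an AP-2 factor of the distal convoluted tubule, had a log2 value of -0.43 there (adjusted p = 0.156 by edgeR). Tfcp2l1, a regulator of collecting duct cell types, had one of -0.45 (adjusted p = 0.167 by edgeR).

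Between I/R + rapamycin and sham the unadjusted p was under 0.05 for 7 genes, beside 13.8% of all genes, and DESeq2 called Esrrg and Pax8, beside 3.27%. Pax8, a factor needed for nephron formation, was at 99.9, 98.7 and 96.5 CPM in I/R + rapamycin, 97.7, 93.7 and 105 CPM in I/R and 143, 125 and 123 CPM in sham, with both injured groups below all sham libraries. Its log2 fold change was -0.40 for I/R against sham (SE 0.086, adjusted p = 0.221 by edgeR and 0.00541 by DESeq2) and -0.40 for I/R + rapamycin against sham (SE 0.086, adjusted p = 0.104 by edgeR and 0.00226 by DESeq2). The list's median was 0.121 between I/R and sham, -0.19 between I/R + rapamycin and I/R and -0.235 between I/R + rapamycin and sham.

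Markers of the collecting duct gave 0 calls by edgeR in the same comparisons. Over all tested genes, the unadjusted p was under 0.05 for 9.42% between I/R and sham and 16.3% between I/R + rapamycin and I/R. Between I/R + rapamycin and sham the share was 13.8%. DESeq2 called 1.31%, 5.24% and 3.27% in this order, of the genes it gave an adjusted p. Over the 7 principal cell markers the median log2 fold change was -0.254 between I/R and sham, 0.172 between I/R + rapamycin and I/R and -0.29 between I/R + rapamycin and sham, with unadjusted p-values under 0.05 for 3, 1 and 3 of them and DESeq2 calls for 0, 1 and 1. Scnn1a, the alpha subunit of the epithelial sodium channel, was at 78.4, 67.0 and 85.4 CPM in I/R + rapamycin, 79.7, 79.7 and 81.2 CPM in I/R and 92.2, 97.1 and 107 CPM in sham, and its log2 fold change for I/R + rapamycin against sham was -0.36 (adjusted p = 0.178 by edgeR and 0.0431 by DESeq2). Aqp3, a basolateral water channel, had 0.54 for I/R + rapamycin against I/R (adjusted p = 0.186 by edgeR and 0.0495 by DESeq2). Over the 6 intercalated cell markers the medians were -0.36, 0.098 and -0.067, with unadjusted p-values under 0.05 for 1, 1 and 2 and DESeq2 calls for 0, 0 and 1.

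The lists of other cell types gave 0 calls by edgeR as well. Their counts stand beside the same shares over all genes, 9.42%, 16.3% and 13.8% for an unadjusted p under 0.05. For DESeq2 calls the shares were 1.31%, 5.24% and 3.27%. The podocyte markers had medians of -0.348 between I/R and sham, 0.02 between I/R + rapamycin and I/R and -0.421 between I/R + rapamycin and sham, with unadjusted p-values under 0.05 for 2, 0 and 4 of 5 and DESeq2 calls for 1, 0 and 1. The 3 globin genes measured of 4 red blood cell genes listed summed to 127, 84.8 and 524 CPM in I/R + rapamycin, 1242, 3332 and 3310 CPM in I/R and 307, 245 and 2552 CPM in sham, so that all I/R + rapamycin libraries were below all I/R libraries, and sham 3 was far above the other sham libraries. Endothelial, macrophage, fibroblast, and inner medulla and osmolyte genes had sums that overlapped between all 3 groups. Of 5 inner medulla and osmolyte genes listed, only 2 were measured, Akr1b1 and Slc6a6, and Slc6a6 made up most of their sum. Of 7 macrophage and T cell genes listed, 6 were measured. Unadjusted p-values were under 0.05 for 2, 1 and 3 of the 5 endothelial markers, with DESeq2 calls for 0, 0 and 1, the 1 being Flt1, a receptor for VEGF (adjusted p = 0.00186 between I/R + rapamycin and sham). In the same order of comparisons, they were under 0.05 for 0, 3 and 1 of the 3 globin genes, 0, 3 and 0 of the 10 proximal tubule markers, 1, 0 and 1 of the 5 injury markers, 1, 0 and 0 of the 2 osmolyte genes, and 0 of the 6 macrophage and 0 of the 5 fibroblast markers in every comparison. DESeq2 called 0 proximal tubule, injury, osmolyte, macrophage and fibroblast genes, and gave the globin genes no adjusted p.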

How the data were processed

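Per the labels' protocols, poly(A) RNA was sequenced in paired-end reads. Tools named in the submitters' processing notes are HISAT2, cutadapt, DESeq2 and StringTie, on Rnor_6.0. For annotation, strand and counting rule the answer is not given in the sources used here, so reads of antisense or overlapping genes could not be separated. The authors deposited raw read counts for 30454 gene IDs and, per the file headers, FPKM values for 11235 genes, which alone pair IDs with symbols. Each of those genes reached 1 FPKM in 8 or 9 libraries, so low genes are missing from the named ones.

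Counts were tested in R 4.3.3 with edgeR 4.0.16 (TMM factors, default filter on low counts, robust quasi-likelihood fit of 9 libraries in 3 groups, no covariates), with Benjamini-Hochberg adjustment over 17335 genes and a call at an adjusted p under 0.05. CPM uses the TMM-scaled library sizes, and an SE was taken from the log2 fold change and its F statistic, as their quotient after a square root of F. The fit was tested on simulated data with known changes. Counts of libraries of a group differed by more than sampling noise (chi-square per degree of freedom of 35.4 to 140.4), so none was treated as a copy of another, which does not show that they came from separate animals. The spread between libraries limited the precision of the genes named.

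The genes and lists were chosen with earlier results of these data known. Named by rule were the listed transport genes, Umod, Wnk1, Stk39, Klhl3 and Egfr, in each other list up to 3 genes with the smallest p in a comparison and any called gene, and the 5 genes most like Slc12a1, Slc12a3 and Egf. The text gives the leading ones of these, and some genes of the rule are not reported here. Alternatives were DESeq2 1.42.0, other size factors, other filters, a fit of 6 libraries, a replicate block, limma 3.58.1 on log2(FPKM + 1) and log2(FPKM + 0.1), removal of a length trend, each library left out, and I/R 1 and sham 3 left out. Leaving out I/R + rapamycin 1 and I/R 3 was added after the data were seen.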

Additional observations from a re-analysis of the deposited data

How the results depend on the processing

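Over 21 alternatives, the 24 fold changes of the 8 transport genes gave 504 values, of which 30, in 11 fold changes, changed sign, and 1 passed the threshold, Slc12a3 between I/R + rapamycin and sham by DESeq2, which made the count 1 where edgeR had 0. Those 11 fold changes were 0.26 or less in size as reported, and the cause was not tested. Between I/R and sham, Kcnj1 was -0.041 after removal of the length trend and -0.026 without I/R + rapamycin 1 and I/R 3, Bsnd was 0.019 without those libraries, and Egf was 0.013 without I/R 1 and sham 3. Between I/R + rapamycin and I/R, Bsnd was 0.0015 with upper-quartile factors, Kcnj1 was 0.17 and Trpm6 0.081 after that removal, Slc12a1 was -0.022, Bsnd 0.060 and Trpm6 0.051 without I/R 1 and sham 3, and Trpm6 was 0.023 without I/R + rapamycin 1 and I/R 3. Between I/R + rapamycin and sham, Kcnj1 was 0.00044 with upper-quartile factors and 0.13 after removal of the length trend. With each library left out in turn, I/R against sham ranged from -0.026 to 0.15 for Kcnj1 and from -0.10 to 0.019 for Bsnd. I/R + rapamycin against I/R ranged from -0.26 to 0.56 for Slc12a1, the low end without I/R + rapamycin 1, from -0.12 to 0.55 for Cldn19, from -0.25 to 0.0011 for Cldn16, from -0.18 to 0.056 for Kcnj1, from -0.11 to 0.065 for Bsnd and from -0.26 to 0.055 for Trpm6. I/R + rapamycin against sham ranged from -0.12 to 0.11 for Kcnj1 and from -0.14 to 0.039 for Bsnd. Over all genes, the 10 calls between I/R and sham were 234 by DESeq2, 2 with only the 6 libraries compared, 1 with a replicate block, 22 and 25 by limma on log2(FPKM + 1) and log2(FPKM + 0.1), 29 after that removal, 67 without I/R 1 and sham 3, and 0 to 36 with 1 library left out. The 22 calls between I/R + rapamycin and I/R were 693, 6, 1, 12 and 11 in the first 5 of these, 128 without I/R 1 and sham 3, and 0 to 47 with 1 library left out. The 27 calls between I/R + rapamycin and sham were 568 by DESeq2, 7 with a replicate block, 104 without I/R 1 and sham 3, and 3 to 47 with 1 library left out. Without I/R + rapamycin 1 and I/R 3, an alternative chosen after the data were seen, edgeR called 0 genes in each comparison. Esrrg lost its call also with upper-quartile factors, with only the 6 libraries compared, by limma and with the replicate block (adjusted p = 0.116 and 0.118), and against sham also without I/R 1 and sham 3 (adjusted p = 0.0541). The log2 fold changes in those fits were -0.74 to -0.66 against I/R and -0.69 to -0.64 against sham. Whether the replicate numbers pair the samples is not given by the labels. Deviations from the group means correlated at -0.213 to 0.136 between libraries of the same number and at -0.124 to 0.227 between others. With 3 libraries per group, these values cannot exclude a pairing. Each of the 8 transport genes had 621 or more counts in every library.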
